A study of Rattus norvegicus with 10 samples.

Results

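The genes described here encode parts of the axoneme, the microtubule core of motile cilia and of the sperm tail, and proteins named with them. These include factors that assemble dynein arms. For short all are called axonemal genes below, though not all encode parts of the axoneme. They are the genes of the array table whose platform symbol starts with Dnah, Dnai, Dnal, Dnaaf, Rsph, Cfap or Drc, and they numbered 75 of the 18166 genes measured. Each was read by 1 probe set. The rule rested on symbols alone, but it was drawn up with earlier results of these data known. RNA came from testes of obese and lean Zucker rats aged 14 weeks, with 1 array per sample. The groups were 4 samples of under-developed testes from obese rats, 4 of normally developed testes from obese rats and 2 of normally developed testes from lean rats. The fa allele is a mutation of the leptin receptor. The labels of all 10 samples, those of the lean rats included, name the Zucker (fa/fa) model, so the genotype of the lean rats is not settled by them. The labels number biological replicates but do not state that these were different rats, and the p-values given cover no more than the variation among these arrays.

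An axoneme consists of doublet microtubules around a central pair. Outer and inner dynein arms on the doublets are motors built from heavy, intermediate and light chains, and they are assembled in the cytoplasm by dedicated factors before they are loaded. Radial spokes pass signals from the central apparatus to the arms, the nexin-dynein regulatory complex links neighbouring doublets, and microtubule inner proteins line the doublet lumen. In the testis this structure is built by spermatids as they form the flagellum, and mutations in many of these genes cause primary ciliary dyskinesia or male infertility in humans.

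All values below are the authors' RMA values on a log2 scale, so a difference of 1 is a 2-fold difference. A level is compared only between arrays for the same probe set. The 6 arrays of normal testes correlated with each other at r 0.994 to 0.997 over all genes. Replicates 1, 2, 3 and 4 of the under-developed testes had mean correlations with them of 0.855, 0.946, 0.731 and 0.995, so the library labelled under-developed replicate 4 lay with the normal testes. Results for the under-developed group are therefore given with all 4 arrays and without replicate 4. That array was left out after its values were seen, and it is the one most like the comparison group. Calls and p-values without it depend on that choice, and with all 4 arrays no gene passed. Over the same arrays, the mean level of 20 spermatid genes was 9.07, 10.74, 7.45 and 11.49 in under-developed replicates 1 to 4, against 11.51 to 11.55 in normal obese testes. The mean of 13 Sertoli cell genes was 9.63, 9.28, 9.82 and 8.15 in the same arrays, against 8.06 to 8.20 in normal obese testes. In whole tissue, fewer cells of a type and less RNA per cell cannot be told apart.

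The axonemal genes were lower in under-developed replicates 1, 2 and 3 than in normal obese testes, and lowest in replicate 3. Set against the mean of the 4 normal obese arrays, the median difference of the 75 genes was -1.82 in replicate 1, -0.85 in replicate 2, -3.53 in replicate 3 and -0.03 in replicate 4. Over all genes these medians were 0.03, -0.02, 0.17 and close to 0. At least 2-fold lower than the normal obese mean were 63 of the 75 genes in replicate 1, 25 in replicate 2, 64 in replicate 3 and 0 in replicate 4. The shares of all genes that far down were 15.6%, 6.18%, 16.8% and 0.0055%. None of the 75 was 2-fold higher in any of the 4 arrays, where 15.5%, 7.56%, 19.2% and 0.0385% of all genes were. In replicate 3, 23 of the 75 genes were at least 16-fold lower, against 3.4% of all genes. In replicate 1, 0 of the 75 were that far down, against 0.132% of all genes, and in replicates 2 and 4 no gene of any kind was.

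Set against all 6 normal arrays, obese and lean, 73 of the 75 genes lay below every one in replicate 1, 70 in replicate 2, 72 in replicate 3 and 22 in replicate 4. The shares of all genes were 37.8%, 38.3%, 32.0% and 18.6%. Above every normal array lay 1, 2, 3 and 9 of the 75, against 40.7%, 34.2%, 49.5% and 17.8% of all genes. Nearly all the axonemal genes thus lay below the normal range in replicates 1 to 3, and most lay within it in replicate 4.

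**Figure D1:**
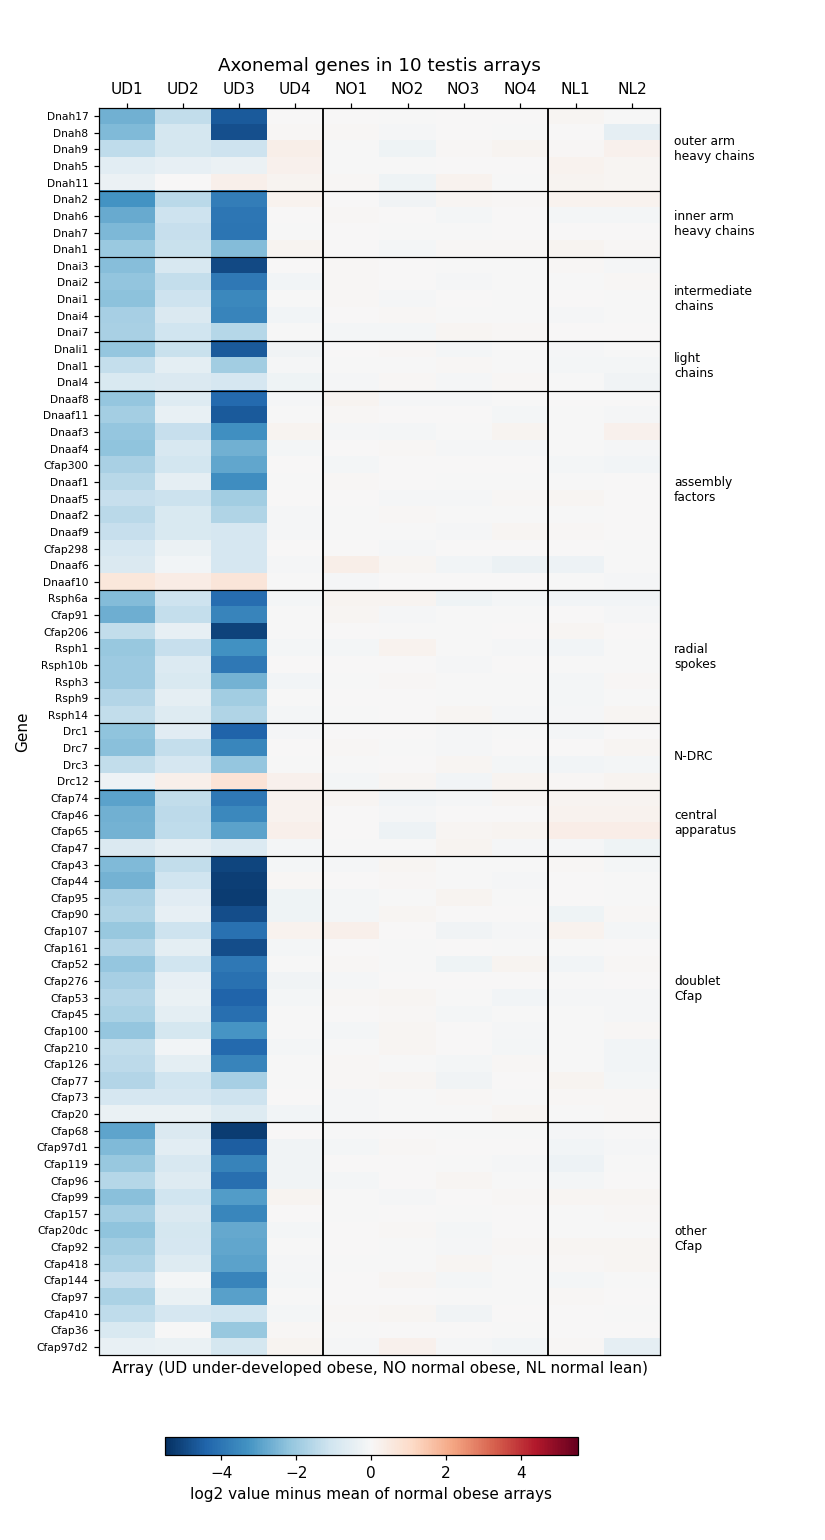
Difference of each of the 75 axonemal genes (rows, by class) from its mean in the 4 normal obese arrays, on a log2 scale, in every array (columns). Replicate 3 of the under-developed testes holds the lowest values, replicate 1 the next and replicate 2 smaller differences, while replicate 4 looks like the 6 normal testes.

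The heat map of differences shows how closely the 4 under-developed arrays kept 1 order. In 63 of the 75 genes the level was lowest in replicate 3, then replicate 1, then replicate 2, and highest in replicate 4. Replicate 4 was the highest of the 4 in 71 genes, and replicate 1 was below replicate 2 in 73. Over all genes only replicate 3 below replicate 1 was counted, at 41.6%, against 65 of the 75. Mean correlation with the normal testes over all genes put the arrays in the same order (0.731, 0.855, 0.946 and 0.995). The order can thus not be taken as particular to the axonemal genes. The SD of a gene over the 4 under-developed arrays was 0.23 to 2.34 with a median of 1.51, against 0.02 to 0.28 with a median of 0.07 over the 4 normal obese arrays.

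That spread set what the test could show. With all 4 under-developed arrays against the 4 normal obese arrays, limma called 0 of the 75 genes and 0 of the 18166 genes at an adjusted p under 0.05 (0% of all genes called lower and 0% called higher). The adjusted p of the 75 genes was 0.0702 to 0.886. At an unadjusted p under 0.05, 56 of the 75 were lower and 1 was higher, beside 22.3% of all genes lower and 24.4% higher. Of the 75 fitted differences 72 were below 0 and 3 above, with a median of -1.59 against 0.06 over all genes.

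Without under-developed replicate 4, 68 of the 75 genes fell and 1 rose in the limma fit, where 26.4% of all genes fell and 29.6% rose. The median difference of the 75 was -2.11, against 0.07 over all genes. In 71 of the 75 genes the 3 remaining under-developed arrays all lay below the 4 normal obese arrays, as they did for 27.8% of all genes, and in 1 they all lay above, against 30.7% of all genes. With replicate 4 included, 25 of the 75 lay below, against 10.4% of all genes, and 0 lay above, against 7.44%. The 1 gene that rose was Dnaaf10. Dnah11, Drc12, Cfap36, Cfap144, Cfap206 and Cfap210 did not pass.

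**Figure D2:**
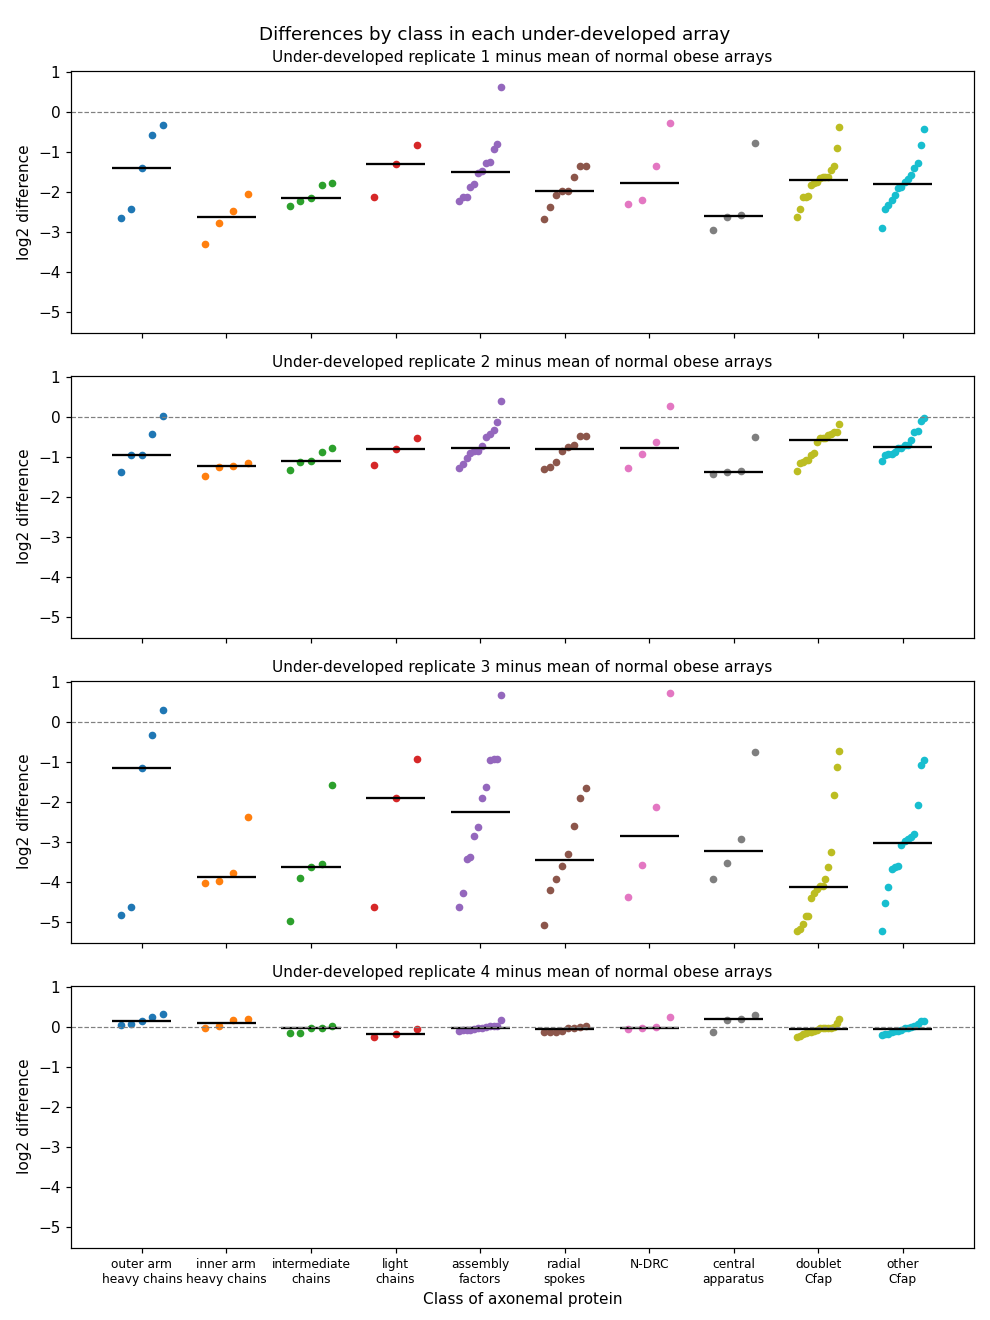
Difference of each axonemal gene from the normal obese mean on a log2 scale (y), by class (x), in each of the 4 under-developed arrays; points are genes and bars are class medians. In replicate 3 the class medians run from -1.16 for the outer arm heavy chains to -4.14 for the doublet-linked Cfap genes, and in replicate 4 they lie between -0.17 and 0.18.

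The outer arm heavy chains, the largest motor subunits, showed unlike patterns. Dnah8 and Dnah17 encode the outer arm heavy chains of the sperm tail in mouse and human. Dnah8 had a level of 8.54, 10.03, 6.16 and 11.05 in under-developed replicates 1 to 4, against 11.06, 10.90, 10.99 and 10.96 in normal obese testes and 11.02 and 10.50 in normal lean testes. Dnah17 had a level of 7.92, 9.20, 5.95 and 10.61 in the under-developed arrays, against 10.58, 10.53, 10.59 and 10.59 in normal obese and 10.67 and 10.57 in normal lean testes. For both genes the first 3 under-developed arrays lay below every normal array and replicate 4 lay among them. Against normal obese testes, Dnah8 differed by -2.03 ± 0.87 (SE; n = 4 and 4; limma adjusted p = 0.101) and, without replicate 4, fell by 2.73 ± 0.73 (limma adjusted p = 0.0112). Dnah17 differed by -2.15 ± 0.81 (limma adjusted p = 0.0768) and fell by 2.88 ± 0.61 without replicate 4 (limma adjusted p = 0.00357).

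Dnah5, Dnah9 and Dnah11 encode the outer arm heavy chains of airway cilia. Dnah9 had a level of 5.27, 5.71, 5.52 and 6.99 in the under-developed arrays, against 6.66, 6.46, 6.76 and 6.82 in normal obese and 6.74 and 6.93 in normal lean testes. Replicates 1 to 3 again lay below every normal array, replicate 3 was not the lowest, and replicate 4 was above all 6 normal arrays. Without replicate 4 Dnah9 fell by 1.17 ± 0.14 (limma adjusted p = 0.000220), and with it the adjusted p was 0.0909. Dnah5 had a level of 5.50, 5.65, 5.76 and 6.32 in the under-developed arrays, against 6.08, 6.05, 6.10 and 6.10 in normal obese and 6.26 and 6.18 in normal lean testes. The differences were small, and Dnah5 fell by 0.44 ± 0.09 without replicate 4 (limma adjusted p = 0.00375). Dnah11 had a level of 7.08, 7.45, 7.70 and 7.56 in the under-developed arrays, against 7.46, 7.17, 7.62 and 7.40 in normal obese and 7.56 and 7.52 in normal lean testes. Its groups overlapped, and the fitted difference of 0.03 ± 0.15 over all arrays did not pass (limma adjusted p = 0.886).

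**Figure D3:**
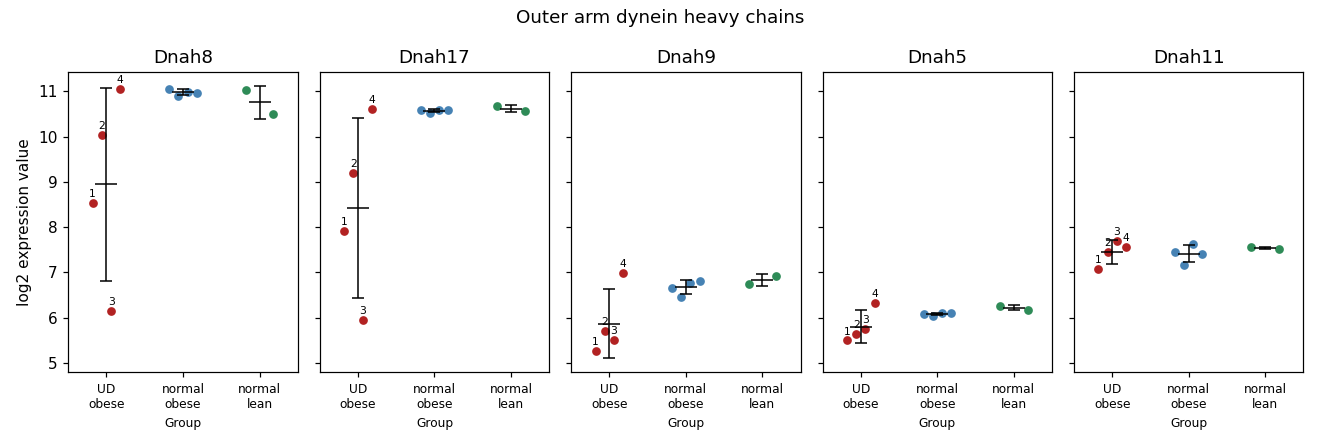
RMA level on a log2 scale (y) of the 5 outer arm heavy chain genes in every array, by group (x), with the mean and SD of each group; numbers mark the replicates of the under-developed testes. Dnah8 and Dnah17 spread from 5.95 to 11.05 in the under-developed arrays, and Dnah11 keeps within 7.08 to 7.70.

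All 4 inner arm heavy chain genes fell without replicate 4, as did 26.4% of all genes. Dnah1, Dnah2, Dnah6 and Dnah7 encode inner arm motors, and loss of DNAH1 gives short, malformed sperm tails in humans. Dnah2 had a level of 6.30, 8.13, 5.81 and 9.80 in the under-developed arrays, against 9.60, 9.41, 9.71 and 9.67 in normal obese and 9.77 in each of the normal lean testes. It was 9.84-fold lower in replicate 1, the farthest of the 75 genes there on the log2 scale, and 13.9-fold lower in replicate 3. Without replicate 4 it fell by 2.85 ± 0.46 (limma adjusted p = 0.000936), and with replicate 4 the difference was -2.09 ± 0.75 (limma adjusted p = 0.0723). Dnah6 had a level of 6.97, 8.59, 5.77 and 9.77 in the under-developed arrays, against 9.80, 9.76, 9.66 and 9.78 in normal obese testes. Dnah7 had 7.41, 8.64, 5.87 and 9.86, against 9.91, 9.89, 9.87 and 9.91 in normal obese testes. Replicates 1 to 3 of both lay below all normal obese arrays. Dnah6 fell by 2.64 ± 0.53 and Dnah7 fell by 2.59 ± 0.52 without replicate 4 (limma adjusted p = 0.00272 and 0.00275). Dnah1 fell by 1.88 ± 0.24 (limma adjusted p = 0.000289), with similar levels in replicate 1, at 6.80, and replicate 3, at 6.47, against 8.73 to 8.92 in normal obese testes.

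All 5 intermediate chain genes and all 3 light chain genes fell without replicate 4, where 26.4% of all genes fell. Intermediate chains hold the motors to the doublet, Dnai1 and Dnai2 in the outer arm and Dnai3, Dnai4 and Dnai7 in inner arms. Dnai3 had a level of 8.63, 10.09, 6.01 and 10.99 in the under-developed arrays, against 11.04, 10.98, 10.94 and 10.95 in normal obese and 11.06 and 10.91 in normal lean testes. Dnai4 had 9.37, 10.44, 7.59 and 11.06 in the under-developed arrays, against 11.22, 11.29, 11.18 and 11.18 in normal obese and 11.17 and 11.19 in normal lean testes. Replicate 4 lay within the normal range for Dnai3 and just below all normal arrays for Dnai4. Dnai3 fell by 2.73 ± 0.76 (limma adjusted p = 0.0141) and Dnai4 fell by 2.08 ± 0.53 (limma adjusted p = 0.00937) without replicate 4. Dnai7 departed from the usual order, at -1.77, -1.11 and -1.58 in replicates 1, 2 and 3, so that replicate 1 was its lowest array. Dnai7 fell by 1.49 ± 0.16 without replicate 4 (limma adjusted p = 0.000139).

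Dnali1, a light intermediate chain of the inner arm, had a level of 8.61, 9.52, 6.11 and 10.55 in the under-developed arrays, against 10.76, 10.81, 10.63 and 10.70 in normal obese and 10.64 and 10.70 in normal lean testes. Dnal1, the leucine-rich light chain of the outer arm, had 8.36, 9.13, 7.76 and 9.59, against 9.64, 9.65, 9.71 and 9.62 in normal obese and 9.56 and 9.54 in normal lean testes. For both, all 4 under-developed arrays lay below all 4 normal obese arrays. Dnali1 fell by 2.65 ± 0.65 (limma adjusted p = 0.00783) and Dnal1 fell by 1.24 ± 0.27 (limma adjusted p = 0.00388) without replicate 4. Dnal4, a small light chain gene, had 7.11, 7.13, 7.0 and 7.68 in the under-developed arrays, against 7.87 to 7.99 in normal obese testes. Its first 3 under-developed arrays were nearly level, and it fell by 0.85 ± 0.09 without replicate 4 (limma adjusted p = 0.000175).

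Of the 12 dynein assembly genes 11 fell and Dnaaf10 rose without replicate 4, where 26.4% of all genes fell and 29.6% rose. Dnaaf1 and Dnaaf11 encode leucine-rich repeat proteins needed to build dynein arms. Dnaaf1 had a level of 11.34, 12.37, 9.45 and 12.84 in the under-developed arrays, against 12.93, 12.88, 12.84 and 12.87 in normal obese and 12.86 and 12.88 in normal lean testes. Dnaaf11 had 9.79, 11.24, 7.03 and 11.63 in the under-developed arrays, against 11.73, 11.69, 11.67 and 11.56 in normal obese and 11.65 and 11.60 in normal lean testes. Replicate 2 lay closest to the normal arrays for both among the first 3, and replicate 3 far below them. Dnaaf1 fell by 1.83 ± 0.55 (limma adjusted p = 0.0195) and Dnaaf11 fell by 2.31 ± 0.79 (limma adjusted p = 0.0338) without replicate 4. Dnaaf10 encodes a WD repeat protein that works with the R2TP co-chaperone. It had a level of 8.24, 8.01, 8.28 and 7.61 in the under-developed arrays, against 7.57, 7.62, 7.62 and 7.66 in normal obese and 7.58 and 7.54 in normal lean testes. Its first 3 under-developed arrays lay above every normal array, opposite to the other assembly genes. Dnaaf10 rose by 0.56 ± 0.10 without replicate 4 (limma adjusted p = 0.00136). Over all 4 under-developed arrays its difference was 0.42 ± 0.15 (limma adjusted p = 0.0724). That value turned to -0.08 with arrays centred on ribosomal protein genes (limma adjusted p = 0.642), and to -0.68, called lower, with arrays centred on Sertoli cell genes (limma adjusted p = 0.0313). The other assembly genes differed in size. Dnaaf8 was at -2.12, -0.72, -4.27 and -0.07 from the normal obese mean in replicates 1 to 4, Dnaaf5 at -1.25, -1.17, -1.90 and 0.02, and Cfap298 at -0.93, -0.34, -0.92 and 0.02.

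Of the 8 radial spoke genes 7 fell without replicate 4, against 26.4% of all genes. Rsph6a encodes a spoke head protein of the sperm tail in mouse, and Rsph10b a further spoke head protein. Rsph10b had a level of 8.96, 10.19, 7.02 and 10.98 in the under-developed arrays, against 10.95, 10.97, 10.90 and 10.98 in normal obese and 10.94 and 10.91 in normal lean testes. Rsph6a had 7.26, 8.51, 5.43 and 9.53 in the under-developed arrays, against 9.80, 9.79, 9.40 and 9.53 in normal obese testes. Both were below all normal obese arrays in replicates 1 to 3. Rsph10b fell by 2.23 ± 0.59 (limma adjusted p = 0.0112) and Rsph6a fell by 2.56 ± 0.58 (limma adjusted p = 0.00509) without replicate 4. Cfap206, at the base of the spokes and needed for sperm motility in mouse, had a level of 11.54, 12.42, 7.81 and 12.88 in the under-developed arrays, against 12.93, 12.88, 12.86 and 12.90 in normal obese and 12.98 and 12.92 in normal lean testes. It was 34.0-fold lower in replicate 3 and 2.55-fold lower in replicate 1, and its difference without replicate 4, -2.30 ± 0.90, did not pass (limma adjusted p = 0.0560). The smallest differences in replicate 3 among the spoke genes were those of Rsph14, at -1.66, and of Rsph9, a spoke head protein, at -1.91.

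The nexin-dynein regulatory complex had 4 genes, of which 3 fell without replicate 4, against 26.4% of all genes. Drc1, a scaffold of the complex, had a level of 8.57, 10.14, 6.39 and 10.72 in the under-developed arrays, against 10.81, 10.81, 10.72 and 10.77 in normal obese and 10.66 and 10.78 in normal lean testes. Drc3 had 8.31, 8.74, 7.53 and 9.64, against 9.66, 9.70, 9.77 and 9.56 in normal obese and 9.52 and 9.58 in normal lean testes. Replicates 1 to 3 of both lay below all normal arrays. Drc1 fell by 2.41 ± 0.70 (limma adjusted p = 0.0162) and Drc3 fell by 1.48 ± 0.24 (limma adjusted p = 0.00100) without replicate 4. Drc12 had a level of 6.44, 6.97, 7.44 and 6.95 in the under-developed arrays, against 6.60, 6.80, 6.56 and 6.86 in normal obese and 6.76 and 6.85 in normal lean testes. It was the only one of the 75 genes whose value in replicate 3 exceeded that in replicate 1 by as much as 1.00, and its groups overlapped (difference 0.24 ± 0.19, limma adjusted p = 0.344).

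All 4 central apparatus genes fell without replicate 4, where 26.4% of all genes fell. Cfap74 had a level of 6.68, 8.28, 5.69 and 9.82 in the under-developed arrays, against 9.72, 9.47, 9.58 and 9.73 in normal obese and 9.78 and 9.76 in normal lean testes. Cfap46 had 6.82, 8.03, 5.93 and 9.63 in the under-developed arrays, against 9.47, 9.40, 9.48 and 9.48 in normal obese and 9.63 and 9.67 in normal lean testes. Both stood well below all normal arrays in replicates 1 to 3, and replicate 4 was above all normal obese arrays. Cfap74 fell by 2.74 ± 0.49 (limma adjusted p = 0.00155) and Cfap46 fell by 2.53 ± 0.40 (limma adjusted p = 0.000803). Cfap47, whose loss gives malformed sperm tails in humans, had 7.80, 8.07, 7.83 and 8.46 in the under-developed arrays, against 8.55, 8.55, 8.72 and 8.51 in normal obese and 8.50 and 8.34 in normal lean testes. It fell by 0.68 ± 0.11 (limma adjusted p = 0.000934), a smaller change than that of the other 3.

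The Cfap genes assigned here to the doublet microtubules numbered 16, of which 15 fell without replicate 4, against 26.4% of all genes. Cfap43 and Cfap44 tether an inner arm dynein, Cfap73 and Cfap100 form a modifier of the inner arms, and most of the rest are microtubule inner proteins. Cfap44 had a level of 8.82, 10.35, 6.26 and 11.52 in the under-developed arrays, against 11.46, 11.51, 11.40 and 11.38 in normal obese and 11.45 and 11.41 in normal lean testes. Cfap43 had 8.22, 9.31, 5.60 and 10.55 in the under-developed arrays, against 10.62, 10.76, 10.63 and 10.65 in normal obese and 10.74 and 10.55 in normal lean testes. Cfap161, a microtubule inner protein, had 10.13, 11.21, 6.90 and 11.64, against 11.76, 11.74, 11.78 and 11.75 in normal obese and 11.75 and 11.77 in normal lean testes. In all 3 genes replicate 3 lay more than 2 below replicate 1. Without replicate 4 Cfap44 fell by 2.96 ± 0.76 (limma adjusted p = 0.00961), Cfap43 fell by 2.95 ± 0.70 (limma adjusted p = 0.00666) and Cfap161 fell by 2.34 ± 0.83 (limma adjusted p = 0.0381).

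Cfap95, a microtubule inner protein, had the lowest difference of the 75 in replicate 3. Its level was 8.50, 9.65, 5.06 and 10.04 in the under-developed arrays, against 10.18, 10.27, 10.42 and 10.26 in normal obese and 10.29 and 10.24 in normal lean testes, or 37.4-fold lower in replicate 3 and 3.44-fold lower in replicate 1. Cfap20, which joins the tubules of a doublet and is also found in cells without motile cilia, had the smallest difference of the 16 doublet-linked genes in replicate 3. It had 9.98, 9.97, 9.63 and 10.19 in the under-developed arrays, against 10.31, 10.34, 10.32 and 10.45 in normal obese and 10.32 and 10.43 in normal lean testes. All 4 under-developed arrays of Cfap20 lay below all normal arrays, and it fell by 0.49 ± 0.11 without replicate 4 (limma adjusted p = 0.00544). Cfap73 had the smallest adjusted p of the 75 in that fit, 0.000105 by limma, with differences of -0.91, -0.90 and -1.13 in replicates 1, 2 and 3.

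The remaining 14 Cfap genes were not assigned to a class here, though some may belong to one. Without replicate 4, 12 of them fell, against 26.4% of all genes. Cfap68 had a level of 8.59, 10.69, 6.26 and 11.49 in the under-developed arrays, against 11.45, 11.52, 11.48 and 11.48 in normal obese and 11.40 and 11.48 in normal lean testes. It fell by 2.97 ± 0.82 without replicate 4 (limma adjusted p = 0.0130), and its difference of -2.23 ± 0.96 over all arrays did not pass (limma adjusted p = 0.100). Cfap36, which binds the small GTPase Arl3, had 11.58, 12.38, 10.33 and 12.48 in the under-developed arrays, against 12.39 to 12.43 in normal obese testes. Its replicate 2 was nearly level with them, and its difference without replicate 4, -0.98, did not pass (limma adjusted p = 0.0568). Cfap97d2, the 1 axonemal gene in the lowest of 4 bins by level in normal lean testes, had 4.85, 4.91, 4.32 and 5.42 in the under-developed arrays, against 5.22, 5.53, 5.21 and 5.14 in normal obese and 5.36 and 4.79 in normal lean testes. It fell by 0.58 ± 0.19 without replicate 4 (limma adjusted p = 0.0303), while replicates 1 and 2 overlapped the lean testes.

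The classes differed in how far replicate 3 lay below replicate 1. The median of replicate 3 minus replicate 1 was -2.35 for the doublet-linked Cfap genes and -1.76 for the intermediate chains. It was -0.85 for the inner arm heavy chains, -0.62 for the central apparatus and 0.25 for the outer arm heavy chains. In the outer arm Dnah8 and Dnah17 were at -2.38 and -1.97, and Dnah5, Dnah9 and Dnah11 at 0.27, 0.25 and 0.63. The median levels of these classes in normal obese testes were 10.47, 10.07, 9.67, 9.36 and 7.41, in the order just given. The part of level in the class differences was not tested. Single genes ran from -3.74 in Cfap206, -3.44 in Cfap95 and -3.23 in Cfap161 to 0.63 in Dnah11 and 1.00 in Drc12. Replicate 3 was below replicate 1 in 65 of the 75 genes, against 41.6% of all genes. With 1 array on each side this is a comparison of those arrays, with no test.

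**Figure D4:**
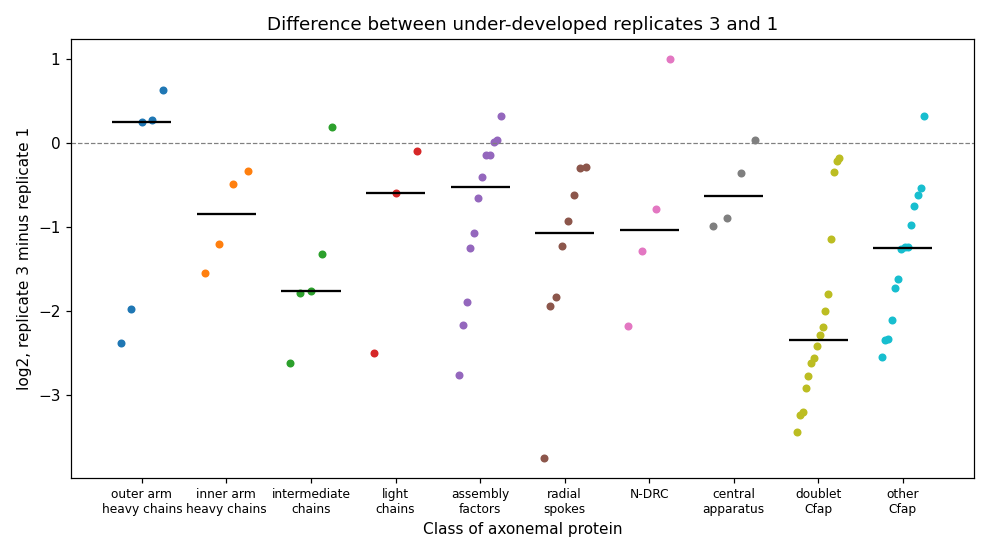
Level in under-developed replicate 3 minus that in replicate 1 on a log2 scale (y), for each axonemal gene by class (x), with class medians as bars. Most genes lie below 0, down to -3.74, and the 4 inner arm heavy chains and 4 central apparatus genes lie closer to 0 than most doublet-linked Cfap genes.

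Most of the 75 genes gave high values in normal testes: with all genes split into 4 equal bins by their level in normal lean testes, 59 were in the top bin. This bears on the counts because high probe sets have more room to be lower. Within that bin, 94.9% of the axonemal genes were at least 2-fold lower in replicate 1, 39.0% in replicate 2 and 94.9% in replicate 3, against 45.3%, 17.4% and 49.8% of all 4542 genes there. Their median differences were -2.07, -0.88 and -3.69, against -0.81, -0.47 and -0.98 for all genes of the bin. The next bin held 11 of the 75, with 6, 2 and 7 of them at least 2-fold lower in replicates 1, 2 and 3, against 14.4%, 6.21% and 14.6% of all genes in it. Only 5 of the 75 lay below these bins (Dnaaf6, Dnah5, Dnah9, Drc12 and Cfap97d2).

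**Figure D5:**
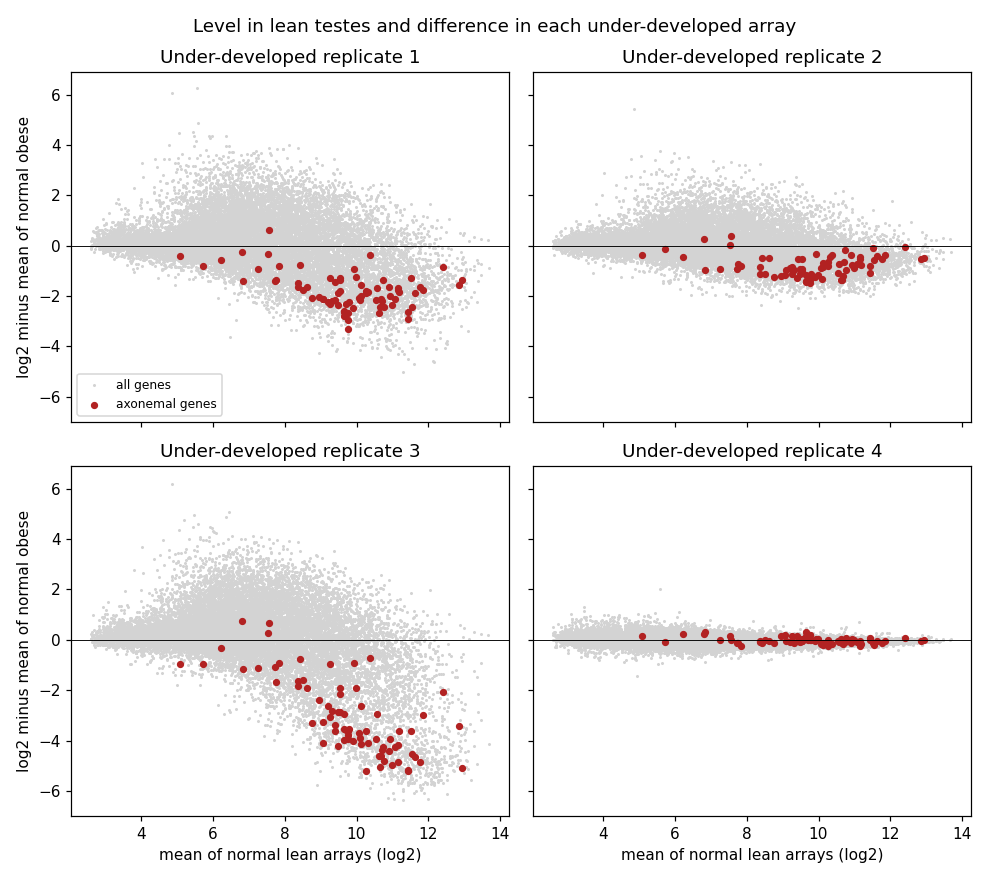
Difference from the normal obese mean on a log2 scale (y) against the mean level in normal lean testes (x) in each of the 4 under-developed arrays, for all genes (grey) and the 75 axonemal genes (red). In replicates 1 and 3 most red points lie below the bulk of grey points at the same level, with medians of -1.82 and -3.53, and in replicate 4 they lie around 0.

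Other genes of the same structures were measured from lists drawn up by function. Of 82 further axonemal genes 47 were measured. Without replicate 4, 43 of these fell and 0 rose, where 26.4% of all genes fell and 29.6% rose. The medians of the 47 were -1.98, -0.90, -3.88 and -0.06 in under-developed replicates 1 to 4. Among them Tcte1, a nexin-dynein regulatory complex gene, was at -2.90, -1.41, -4.82 and 0.06, and Zmynd10, a dynein assembly gene, at -3.16, -1.04, -4.53 and -0.04. Intraflagellar transport carries axoneme parts into growing cilia. Of its 36 listed genes 26 were measured, and 22 fell and 0 rose, with smaller medians of -1.61, -0.67, -2.26 and -0.03. Of 13 measured regulators of ciliary genes 11 fell and 0 rose, with medians of -1.78, -0.92, -2.53 and -0.03. Rfx2, a transcription factor that mouse spermatids need for ciliary gene expression, was at -2.96, -1.26, -4.51 and -0.13, and fell by 2.91 without replicate 4 (limma adjusted p = 0.00329). Foxj1, another transcription factor of ciliary genes, was not measured.

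Ciliated cells of the efferent ducts also make axonemes. Of 16 measured markers of duct epithelium 3 fell and 2 rose without replicate 4, where 26.4% of all genes fell and 29.6% rose. The mean level of the 16 was 5.73, 5.89, 5.79 and 6.03 in the under-developed arrays, against 5.94 to 6.04 in normal obese testes. The normal obese means of 6 of the 16 (Gmnc, Krt18, Pax8, Cdh1, Cldn7 and Cldn10) were below the 25th percentile of all normal obese values. Those that fell were Ccno, which is also among the regulators above, Epcam and Gmnc. Ccno was at -2.12, -1.0, -3.72 and -0.08 from the normal obese mean in under-developed replicates 1 to 4, and Epcam at -1.42, -0.52, -1.72 and -0.16 (limma adjusted p = 0.00493 and 0.00342 without replicate 4). Of the 2 that rose, Krt19 was at 0.66, 0.39, 0.83 and 0.07 in the same arrays (limma adjusted p = 0.00439 without replicate 4). Markers of the later germ cells fell beside the axonemal genes, and those of spermatogonia went both ways. Of 20 spermatid genes 19 fell and 0 rose without replicate 4, and of 16 spermatocyte genes 15 fell and 0 rose. Of 11 spermatogonial genes 4 fell and 3 rose, beside the same 26.4% and 29.6% of all genes. Of 13 Sertoli cell genes 10 rose and 1 fell, of 8 Leydig cell genes 6 rose and 0 fell, and of 12 macrophage genes 10 rose and 1 fell. The part of these marker shifts in the axonemal differences was not tested.

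Normal testes of obese and lean rats were compared next. limma called 0 of the 75 genes and 0 of the 18166 genes (0% of all genes in either direction). At an unadjusted p under 0.05 there were 0 of the 75 genes, 0.319% of all genes lower and 0.121% higher. The fitted differences of the 75, obese minus lean, ran from -0.38 in Cfap65 to 0.21 in Dnah8, with 33 below 0 and 42 above. That fit shares its estimate of spread with the under-developed arrays, which widens the intervals: the 95% interval was -2.06 to 1.30 for Cfap65 and -2.21 to 2.63 for Dnah8. Fitted on the 6 normal arrays alone, every one of the 75 intervals lay between -0.65 and 0.58, so differences of 2-fold or more lay outside them. In that fit 2 of the 75 had an unadjusted p under 0.05, and the smallest adjusted p of the 75 by limma was 0.754. Cfap65, a central apparatus gene, had a level of 9.27, 9.0, 9.38 and 9.43 in normal obese testes, against 9.65 and 9.65 in normal lean testes, a difference of -0.38 (95% interval -0.65 to -0.10). Cfap46 differed by -0.19 (95% interval -0.35 to -0.04) and Cfap47 by 0.16 (95% interval -0.04 to 0.36). All 4 obese values lay below both lean values for 8 of the 75 (Cfap46, Cfap65, Cfap74, Cfap92, Cfap99, Dnah1, Dnah2 and Dnah5), where 7.27% of all genes did so. For 3 of the 75 (Cfap300, Cfap47 and Dnal1) all lay above, against 7.7% of all genes.

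Against the 2 normal lean testes, the under-developed testes gave much the same picture. These are the same under-developed arrays as above, so the values are not independent of those against normal obese testes. limma called 0 of the 75 genes and 0% of all genes in either direction with all arrays. At an unadjusted p under 0.05, 30 of the 75 were lower and 1 higher, beside 14.3% and 17.5% of all genes. Without under-developed replicate 4, 57 of the 75 fell and 1, Dnaaf10, rose, where 23.2% of all genes fell and 25.6% rose. The median difference was -1.57 over all arrays and -2.06 without replicate 4. Among the 17 that did not pass were Cfap206, Cfap95, Cfap90 and Cfap161, whose levels in replicate 3 were far below those in replicates 1 and 2.

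RFX factors, among them Rfx2, bind a palindromic element called the X-box in promoters of ciliary genes. Promoter windows of 250 bases before to 50 after the start were taken from RefSeq (GRCr8) and were found for 64 of the 75 genes. The full X-box, searched on both strands, was in a window of 7 of these 64 genes, or 10.94%, against 0.63% of the 14503 measured genes with a window and 0.69% of all 33469 windows. Its core GTTGCC, which overlaps the full element, was in 23 of the 64, or 35.94%, against 12.76% of measured genes and 12.21% of all windows. For comparison, GTAAACA, the forkhead motif, was in 3 (Cfap20, Cfap43 and Dnali1), or 4.69% against 3.08% of measured genes, and TGACGTCA, the cyclic AMP response element, in 2 (Cfap96 and Dnah6), or 3.12% against 2.48%. A match is a run of letters and not a bound site, and no match says nothing of the factor.

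The 7 X-box matches are shown because they are the sequences behind that count, each read 5′ to 3′ along the gene's strand with the element in capitals.
Dnah2: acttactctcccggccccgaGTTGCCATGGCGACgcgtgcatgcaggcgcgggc
Cfap44: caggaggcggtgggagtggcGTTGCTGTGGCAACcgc
Cfap45: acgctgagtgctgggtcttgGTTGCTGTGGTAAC
Cfap20dc: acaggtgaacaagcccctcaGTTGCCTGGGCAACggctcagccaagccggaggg
Cfap298: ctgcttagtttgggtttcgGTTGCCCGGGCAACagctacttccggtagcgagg
Dnaaf2: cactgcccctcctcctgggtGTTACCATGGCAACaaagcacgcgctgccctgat
Dnaaf6: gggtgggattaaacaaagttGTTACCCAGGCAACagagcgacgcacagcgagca
The stretches lie at chr10:54766038-54766091 on the minus strand for Dnah2, chr11:69789906-69789942 (minus) for Cfap44, chr13:87521798-87521831 (plus) for Cfap45 and chr15:18661364-18661417 (plus) for Cfap20dc. Those of the assembly genes lie at chr11:43677580-43677632 (minus) for Cfap298, chr6:93406378-93406431 (minus) for Dnaaf2 and chrX:108512933-108512986 (plus) for Dnaaf6. Counted from the start, the element began at -45 in Dnah2, -17 in Cfap44, -13 in Cfap45, -88 in Dnaaf2 and -49 in Dnaaf6, and farther upstream, at -178 and -231, in Cfap20dc and Cfap298.

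These 7 genes did not share a size of difference. Without under-developed replicate 4, Cfap44 fell by 2.96 and Dnah2 fell by 2.85 against normal obese testes, while Dnaaf6 fell by 0.62 and Cfap298 fell by 0.73 (limma adjusted p = 0.00961, 0.000936, 0.0397 and 0.00299). Cfap45, Cfap20dc and Dnaaf2 lay between, with differences of -2.15, -1.99 and -1.32 that passed as well.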

How the data were processed

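The authors deposited log2 expression values per probe set for 10 Affymetrix rat arrays, summarised with RMA per the submitters' processing notes. Its version and the genome build are not given in the sources used here. RMA makes array distributions alike, so values are relative within an array. Of 36685 probe sets, 18511 carried 1 symbol in the platform annotation, 575 several and 17599 none. Taking the probe set with the highest mean per gene left 18166 genes. Symbols were updated through RefSeq (GRCr8), which changed no axonemal gene. The 2 probe sets with several symbols that held Dnah3 and Cfap141 were left out.

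A linear model with 3 group means was fitted to all 10 arrays (limma 3.58.1 under R 4.3.3, moderated by eBayes), with Benjamini-Hochberg adjustment over 18166 genes and a threshold of 0.05. Tested on simulated arrays for under-developed against normal obese testes, the fit recovered 98% of 100 genes changed by 1 and 100% of 100 changed by 3. It made 16 false calls among the unchanged genes. All simulated arrays were drawn with the spread of the normal arrays, and no array standing apart was simulated. The real under-developed arrays spread far more (median SD of the 75 genes 1.51, against 0.07 in normal obese arrays). These rates therefore do not carry over to the real comparison. The number of arrays limits the precision.

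The members and lists were chosen with earlier results of these data known. Full values are given for the 2 genes with the highest normal obese mean in each class but the 14 other Cfap genes, the 8 lowest and 5 highest fitted differences and the 3 smallest p in obese against lean. Others (Dnah1, Dnah9, Dnai7, Dnal4, Rsph6a, Cfap20, Cfap36, Cfap65, Cfap73, Cfap95) were picked after their values were seen, as contrasts. Single genes from the lists have values given only if their fitted differences were among the largest of their list, so they are not typical of it. Alternatives were other centrings, array weights, a filter on dim probe sets, a replicate block, fits of 2 groups and leaving out each array.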

Additional observations from a re-analysis of the deposited data

Results flagged for a closer look

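Of 56 groups of 4 arrays checked for an array standing apart, 2 were picked out, and chance alone picks about 5% of groups. Dnah17 in normal obese testes was 10.53 in replicate 2, against 10.58 to 10.59 in the other 3, a gap of 0.856 of the range. The median level of the 75 axonemal genes in normal obese testes was 9.88 in replicate 1, against 9.76 to 9.77 in the other 3, a gap of 0.961 of the range. Both gaps are small beside the differences of under-developed replicates 1 to 3.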

How the results depend on the processing

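For under-developed against normal obese testes, limma called 0 of the 75 genes lower or higher under most settings. Arrays centred on Sertoli cell genes gave 74 lower and 0 higher (all genes 13635 lower and 260 higher, with the median of all genes at -1.03). Array weights gave 71 lower and 1 higher (all genes 4711 and 5151), and leaving out under-developed replicate 4 gave 68 and 1 (all genes 4790 and 5381). Leaving out any other array gave 0 calls, so the range was 0 to 68 lower and 0 to 1 higher (all genes 0 to 4790 and 0 to 5381). The median of the 75 was -2.68 with Sertoli centring and -2.11 to -0.91 when 1 array was left out, the last without under-developed replicate 3. At an unadjusted p under 0.05, 4045 genes were lower and 4425 higher, against 7015 and 1846 with ribosomal protein centring, which put the median of all genes at -0.43, and 14294 and 321 with Sertoli centring. For under-developed against normal lean testes, array weights gave 70 lower and 1 higher (all genes 4659 and 4961), and leaving out replicate 4 gave 57 and 1 (all genes 4220 and 4646). For normal obese against lean testes, array weights and the fit of the 2 groups alone each called 1 gene higher, none of the 75. The median of the 75 was -0.09 with ribosomal centring and 0.09 with the replicate block.

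Among 27 named axonemal genes, 532 values kept direction and call, 72 gained a call and 13 changed sign, all in 3 genes. Dnaaf10 was -0.08 with ribosomal and -0.68 with Sertoli centring. Dnah11 was -0.05 with median centring, -0.02 with repeated quantile normalization, -0.46 with ribosomal and -1.06 with Sertoli centring, -0.16 with array weights, and -0.05 to 0.16 when 1 array was left out. Drc12 was -0.25 with ribosomal centring, -0.85 with Sertoli centring and -0.02 with array weights. The cause was not tested. Same-numbered under-developed and normal obese arrays correlated in their deviations at 0.077, 0.007, 0.024 and 0.26, so the numbers are not taken as pairs. With the replicate block limma called 0 of the 75 genes (0 of all genes), with 61 lower at an unadjusted p under 0.05 against 56 without it.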

Other observations

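Cytoplasmic dynein and its partner dynactin carry cargo along microtubules in all cells. Of 19 measured genes of cytoplasmic dynein and dynactin, 10 fell and 4 rose without under-developed replicate 4, where 26.4% of all genes fell and 29.6% rose. Their medians were -0.37, -0.21, -0.59 and -0.08 in replicates 1 to 4, below 0 in each array as for the axonemal genes, and the difference between these groups was not tested. Whether every listed light chain belongs to this general motor was not checked. Dynlt2, with the largest fitted difference of the list, was at -1.79, -0.41, -5.3 and 0.05 from the normal obese mean in replicates 1 to 4. Dynlt2b was at -1.72, -0.62, -2.64 and -0.35. The paralogous light chains Dynlrb1 and Dynlrb2 went opposite ways. Dynlrb1 had a level of 11.31, 10.63, 11.41 and 8.82 in the under-developed arrays, against 8.96, 8.96, 8.86 and 8.83 in normal obese and 8.84 in each of the normal lean testes. It rose by 2.21 without replicate 4 (limma adjusted p = 6.57e-05). Dynlrb2 had a level of 7.21, 8.57, 5.97 and 8.92 in the under-developed arrays, against 9.09, 9.21, 9.30 and 9.17 in normal obese and 9.14 and 9.25 in normal lean testes, and fell by 1.94 without replicate 4 (limma adjusted p = 0.00832). With all 4 arrays neither passed (limma adjusted p = 0.0702 and 0.0738).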
